A study of Homo sapiens with 11 samples.

Results

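The THBS1 and FSIP1 locus on chromosome 15 was examined in Ishikawa cells, an established human endometrial cancer cell line, for binding of the estrogen receptor (ER) and the glucocorticoid receptor (GR) and for H3K27ac, the acetylated form of histone H3 (at lysine 27) that is found at active promoters and enhancers. Its members were all peaks that overlap hg19 chr15:39820000-40130000, a window of 310 kb that holds THBS1 (chr15:39873280-39889668), FSIP1 (about chr15:39892231-40075031) and about 50 kb on each side. The window held 18 peaks of 90458 in the 8 lists: 4 of ER, 1 of GR and 13 of H3K27ac. Cells were grown without phenol red in charcoal-stripped serum before treatment, and every group is the same cell line with no genetic change named in the labels. ER was mapped after 1 h with 10 nM estradiol and after 1 h with 10 nM estradiol and 100 nM dexamethasone together (called both hormones here). GR was mapped after 1 h with 100 nM dexamethasone and after 1 h with both hormones. H3K27ac was mapped after 8 h in cells given the vehicle DMSO, estradiol, dexamethasone or both hormones, at the same doses. The 8 h is the time in each sample's treatment label, while the protocol text of the same samples gives 1 h, so the time of the H3K27ac libraries is uncertain. Each group is 1 library, so there is no replicate check, no test between conditions was possible, and a difference below compares single libraries. The members were chosen by position, and the locus itself was chosen by measured values: the −log10 q of its distal ER and GR sites and the H3K27ac gained around them with estradiol were already known to be among the highest of their lists. The strength, presence and overlap of these peaks are therefore given as a description.

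THBS1 encodes thrombospondin-1, a secreted matrix glycoprotein known for blocking the growth of blood vessels and for activating latent transforming growth factor beta. FSIP1 encodes fibrous sheath interacting protein 1, named for its link to the fibrous sheath of the sperm tail. The genes point towards each other, with THBS1 on the plus strand and FSIP1 on the minus strand. ER and GR are transcription factors that bind DNA when their hormones are present, ER at estrogen response elements and GR at glucocorticoid response elements, and both can act from enhancers far from a gene's start.

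The sequences before the 2 gene starts are shown because H3K27ac and ER were called at the THBS1 start while no peak of any list lay near the FSIP1 start. They are the 250 bases before each start from RefSeq, build GRCh38.p14, written 5′ to 3′ in the direction of the gene. THBS1 is chr15:39580829-39581078 on the plus strand and FSIP1 is chr15:39782842-39783091 on the minus strand. These positions are in another build than the peaks and cannot be set against them base by base. Capitals mark every match, on either strand, to the letters searched.
THBS1: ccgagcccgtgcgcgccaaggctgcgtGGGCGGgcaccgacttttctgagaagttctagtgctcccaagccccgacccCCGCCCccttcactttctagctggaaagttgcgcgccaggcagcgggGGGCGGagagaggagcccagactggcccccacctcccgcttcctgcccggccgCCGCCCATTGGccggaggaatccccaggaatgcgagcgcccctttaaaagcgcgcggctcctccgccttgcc
FSIP1: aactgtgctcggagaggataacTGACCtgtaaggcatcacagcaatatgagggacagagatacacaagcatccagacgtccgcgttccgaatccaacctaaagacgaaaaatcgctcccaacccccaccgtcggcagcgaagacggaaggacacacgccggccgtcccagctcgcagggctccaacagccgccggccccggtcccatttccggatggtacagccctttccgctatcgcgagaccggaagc
The searches covered the full estrogen response element and the full glucocorticoid response element, each written as 2 arms with 3 free bases between them. They also covered the single estrogen arm GGTCA, the single glucocorticoid arm AGAACA, the AP-1 letters TGANTCA, the GC box GGGCGG bound by SP1, the CCAAT box spelled by its name and the TATA box TATAAA. Both strands were read. An arm lies inside its full element, so a full match would also count as an arm. THBS1 held the GC box 4 times and the CCAAT box 1 time, and the GC box nearest the start was directly followed by the CCAAT match. FSIP1 held 1 match, an estrogen arm from 228 to 224 bases before the start. Over the 35116 promoters of the table, the same 250 bases held the GC box in 42.6%, the CCAAT box in 32.0% and the estrogen arm in 32.6%. The full estrogen response element was in 14 of the promoters and the full glucocorticoid response element in 1, and neither was in these sequences. The G and C share was 69.6% before THBS1 and 59.6% before FSIP1, beside a median of 58% over the table. A match is a description of letters, and a missing match says only that those letters are not in these 250 bases. By the hg19 start, the ER peaks at THBS1 lay after it, from 75 to 190 bp with estradiol and 91 to 211 bp with both hormones. The bases under the ER peaks were therefore not searched.

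All 5 receptor peaks of the window fell on 2 places, the start of THBS1 and a distal site inside FSIP1. The distal site lay 87.6 kb downstream of the THBS1 start and 114 kb downstream of the FSIP1 start. Whether it lies in an intron or an exon of FSIP1 was not analysed here. The 2 places were 87.4 kb apart, measured between the ER summits with estradiol.

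**Figure D1:**
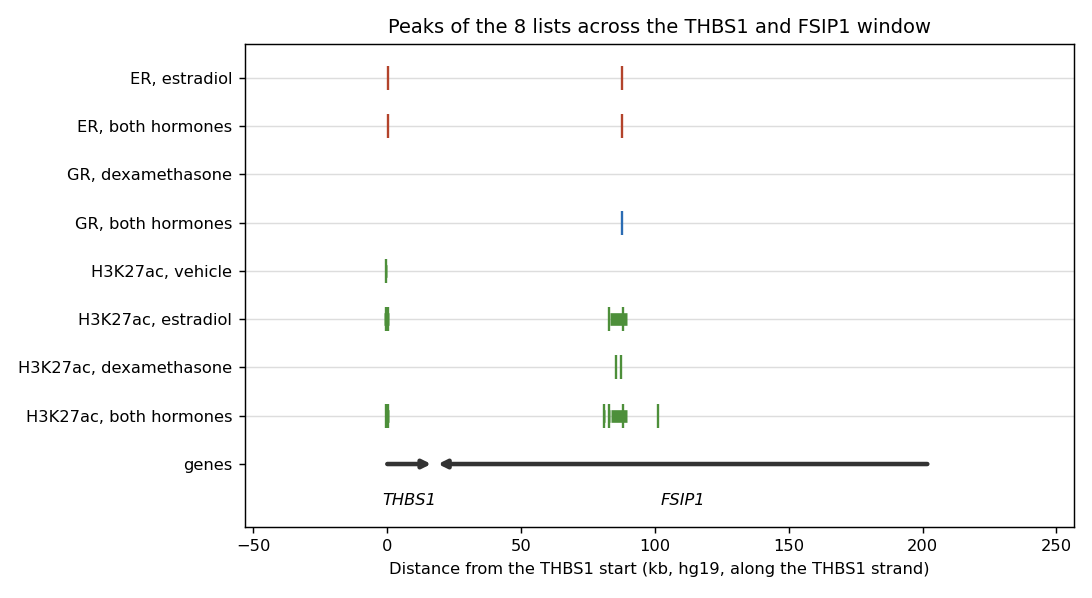
Peaks of the 8 lists against distance from the THBS1 start in kb. Horizontal bars are peaks at their true width, vertical ticks are summits and arrows are the genes in their direction of transcription. Receptor peaks stand at the THBS1 start and 87.6 kb downstream of it, and the GR list with dexamethasone has no peak in the window.

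At the distal site, ER was called at chr15:39960696-39960988 with estradiol and at chr15:39960689-39961000 with both hormones. ER is the receptor for estradiol. The authors' fold enrichment over the local control was 54.9 with estradiol and 53.9 with both hormones. By the authors' −log10 q, the site ranked 5 of 3560 with estradiol and 7 of 2382 with both hormones, and it was the strongest ER peak of chromosome 15 in both lists. These ranks are part of what chose the locus, and by fold enrichment they were 5 and 18. The ER summits were 3 bp apart, beside a median of 12 bp over 2200 overlapping ER sites. Summit pileup was 73.6 with estradiol and 106.8 with both hormones after both libraries were scaled to 3479280 tags. Tags were extended to 90 bp with estradiol and to 121 bp with both hormones, which changes pileup, so the 2 pileups were not compared.

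GR, the receptor for dexamethasone, was called at the distal site with both hormones, at chr15:39960722-39960969, and not with dexamethasone alone. The fold enrichment was 62.5, and the peak ranked 26 of 1628 in the list and second among the 37 GR peaks of chromosome 15. The whole GR peak lay inside both ER peaks, and its summit was 6 bp from the ER summit with both hormones and 9 bp from the one with estradiol. Over the genome the median distance was 19 bp for 759 overlapping pairs with both hormones and 21 bp for 703 pairs with estradiol ER. Summits as close as those of the distal site were found in 152 of the 759 pairs and 185 of the 703 pairs. The GR list with dexamethasone held no peak in the window. Its nearest peak was chr15:40637783-40637884, 677 kb beyond the distal ER summit, and it held no peak on chromosome 15 before the window. An empty window was the common case for this list. Of 5495 windows of the same length that hold a peak of any list, 1213 (22.1%) held a dexamethasone GR peak. Usable tags numbered 6353466 in the dexamethasone GR library and 5206574 in the one with both hormones. A missing call means only that no peak passed the authors' p cutoff of 1e-10.

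At the THBS1 start, ER was called just downstream of the start in both ER lists, and GR in neither GR list. The ER peak was chr15:39873355-39873470 with estradiol and chr15:39873371-39873491 with both hormones, with summits 132 and 149 bp after the THBS1 start. The fold enrichment was 13.1 with estradiol and 10.0 with both hormones. The site ranked 2423 of 3560 with estradiol and 2126 of 2382 with both hormones, so 31.7% and 10.7% of the peaks of these lists were weaker. It was a weak ER peak in both lists, and near the bottom of the one with both hormones. It was lost from both lists when each was cut to its strongest 1628 peaks, and from the list with both hormones when −log10 p had to reach 20.

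**Figure D2:**
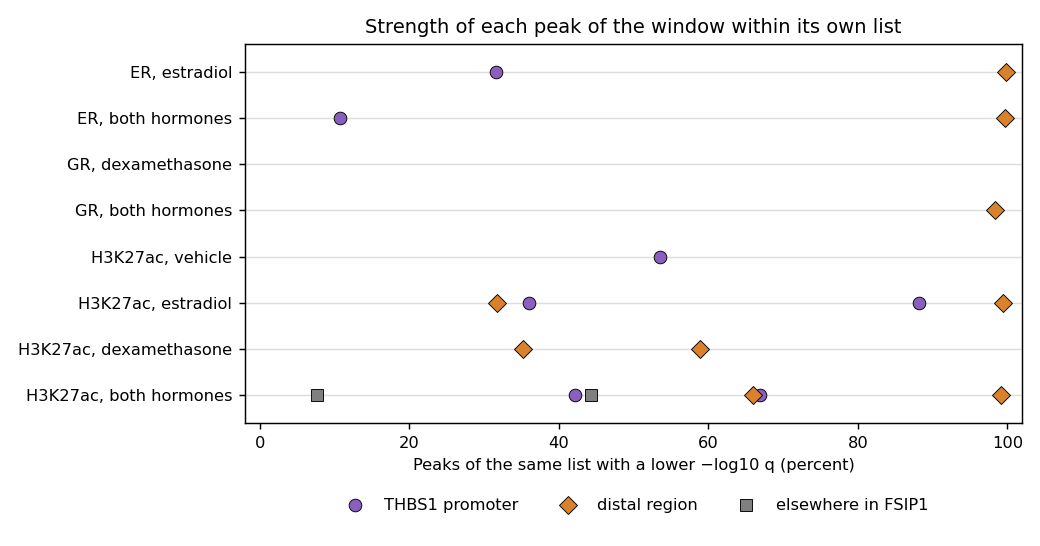
Each of the 18 peaks of the window placed by the percent of peaks of its own list with a lower −log10 q, with 1 row per list. Circles are peaks at the THBS1 promoter, diamonds peaks in the distal region and squares the remaining peaks inside FSIP1. The distal receptor peaks lie at 98.4% or higher, and the ER peaks at the THBS1 promoter at 31.7% and 10.7%.

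Both ER sites of the window were called with and without dexamethasone, where 61.8% of all estradiol ER sites were. Of the 2 estradiol ER sites, 1 carried GR with both hormones (19.7% of all estradiol ER sites) and 0 carried GR with dexamethasone alone (10.0% of all). Seen from ER with both hormones, 1 of 2 sites carried GR with both hormones, beside 31.9% over that list. The single GR site of the window lay on an estradiol ER site, as 43.5% of all GR sites with both hormones did, and it had no dexamethasone counterpart, where 63.1% had one. Counts over 2 sites and 1 site are too small to be read against these shares.

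Site strength sets the distal site in its own company. Of the 50 strongest estradiol ER sites, all 50 were ER sites with both hormones, 36 carried GR with both hormones and 3 carried GR with dexamethasone alone. GR with both hormones and without dexamethasone alone, the state of the distal site, was found at 33 of those 50. It was found at 432 of all 3560 estradiol sites (12.1%), counting only those called for ER with both hormones as well. Of the 50 strongest ER sites with both hormones, 49 carried GR with both hormones and 10 with dexamethasone. The THBS1 site, called for ER in both lists and for GR in neither, had weak neighbours in rank. Among the 211 estradiol ER sites within 100 ranks of it, 79 (37.4%) were called with both hormones, 17 (8.06%) carried GR with both hormones and 14 (6.64%) carried GR with dexamethasone. In the ER list with both hormones, 207 sites lay within 100 ranks of it. Of these, 172 (83.1%) were called with estradiol, 17 (8.21%) carried GR with both hormones and 28 (13.5%) carried GR with dexamethasone.

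H3K27ac peaks covered 0.452 kb of the window in the vehicle list and 0.932 kb in the dexamethasone list. They covered 8.73 kb in the estradiol list and 9.36 kb in the list with both hormones. These lengths came from 1, 2, 4 and 6 peaks in the same order. Most of the difference between the lists with and without estradiol lay around the distal site. As a share of the whole length under H3K27ac peaks, the window held 0.00252% (vehicle), 0.00752% (dexamethasone), 0.0361% (estradiol) and 0.0462% (both hormones). The vehicle library was the deepest, with 18508574 usable tags, and the hormone libraries had 10852521 (estradiol), 9034395 (dexamethasone) and 9657258 (both hormones). Duplicate tags made up 33% of the dexamethasone library and 18% to 22% of the H3K27ac libraries of the other treatments. The part that depth and duplicates have in these lengths was not tested.

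**Figure D3:**
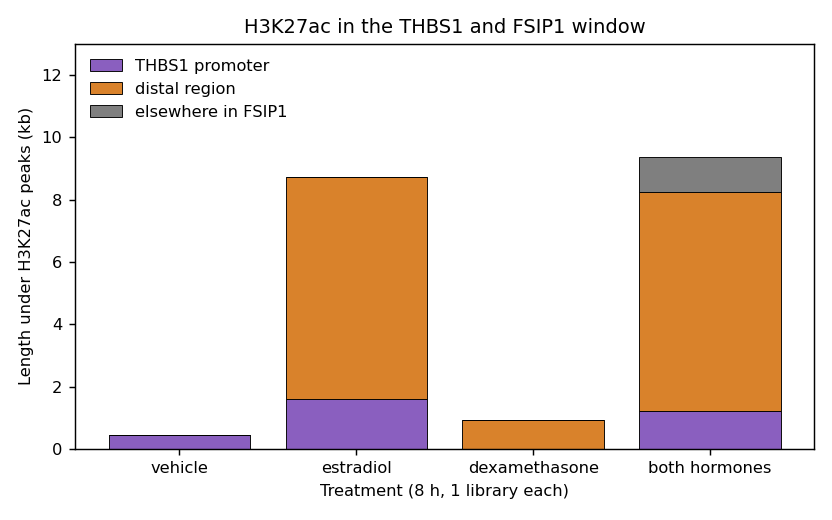
Length under H3K27ac peaks in the window, in kb, for the 4 treatments at 8 h with 1 library each, stacked by place. The distal region adds 7.13 kb with estradiol and 7.04 kb with both hormones, 0.932 kb with dexamethasone and 0 kb with vehicle.

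The distal ER site lay in a broad H3K27ac region that was called in the 3 hormone lists and not with vehicle. Joined over the lists, the region was chr15:39955608-39963017, 7410 bp long. With estradiol it held a peak of 6704 bp at chr15:39956314-39963017, with a fold enrichment of 42.3, and a smaller one of 424 bp upstream (fold enrichment 10.7). With both hormones it held a peak of 5985 bp at chr15:39956986-39962970, with a fold enrichment of 33.5, and one of 1058 bp upstream (14.4). The broad peaks ranked 150 of 23888 with estradiol and 174 of 20873 with both hormones by −log10 q, and 185 and 240 by width. Peaks covered 96.2% of the region with estradiol and 95.0% with both hormones.

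The acetylated region was not centred on the receptor site. The broad estradiol peak reached from 4543 bp before to 2160 bp after the ER summit, and the one with both hormones from 3871 bp before to 2113 bp after it, counted along the THBS1 strand. Their H3K27ac summits lay on the short side, 463 and 418 bp after the ER summit. The longer arm thus lay on the side of THBS1, which is also the side of the FSIP1 end. Whether the arm relates to either gene was not tested.

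With dexamethasone alone the distal region held 2 narrow H3K27ac peaks, chr15:39958198-39958810 (fold enrichment 12.0) and chr15:39960405-39960723 (8.46). They ranked 6240 and 9829 of 15192 and covered 12.6% of the region. The peak nearer the receptor site shared 28 bp with the estradiol ER peak and 2 bp with the GR peak of both hormones, so it lay beside the site and touched its edge. H3K27ac was therefore called here with dexamethasone (labelled 8 h), and GR was not (1 h). Receptor binding was mapped at 1 h only, and the time of the H3K27ac libraries carries the doubt given above.

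**Figure D4:**
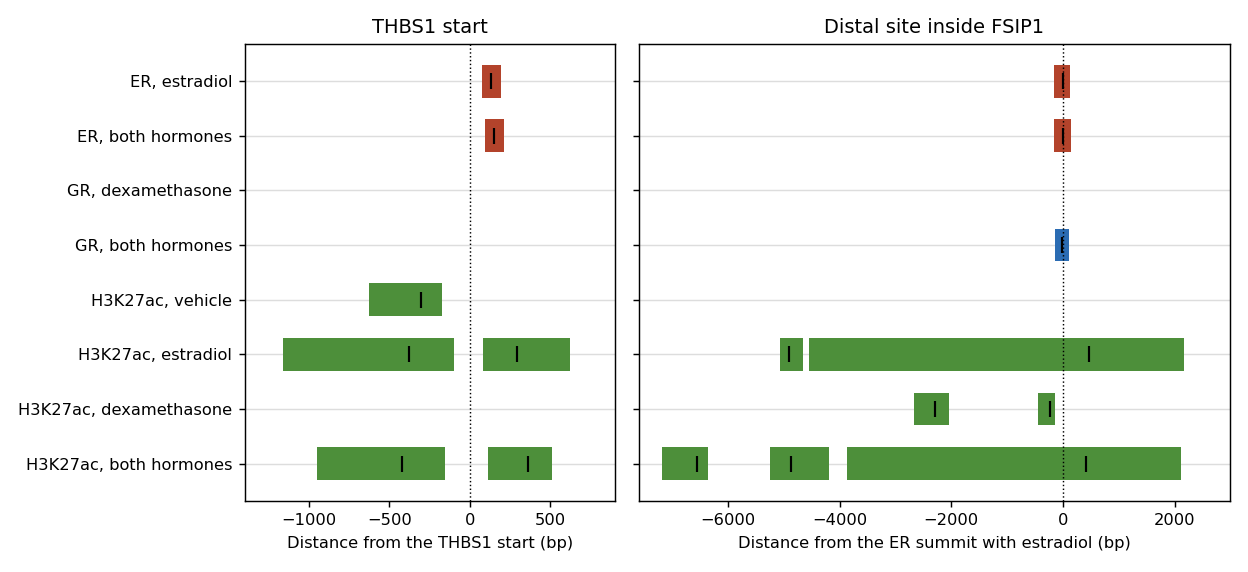
Peaks at true width around the THBS1 start (left, distance from the start in bp) and around the distal site (right, distance from the estradiol ER summit in bp), with 1 row per list and black ticks at summits. H3K27ac flanks the THBS1 start on both sides with estradiol and with both hormones and covers the distal site broadly in the same lists. With dexamethasone, 2 narrow peaks stand on the left of the distal summit and none at the THBS1 start.

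Regions called in every hormone list and not with vehicle were uncommon. They numbered 495 of 27111 joined H3K27ac regions (1.83%), with a median width of 818 bp beside 662 bp over all regions. The distal region was the widest of the 495. That width is of the joined region, of which peaks covered 96.2% with estradiol, 95.0% with both hormones and 12.6% with dexamethasone. Of these 495 regions, 50 held an estradiol ER site (10.1%, beside 6.01% of all regions), 34 a GR site of both hormones (6.87%, beside 2.82%) and 33 a GR site of dexamethasone (6.67%, beside 2.94%). ER in both lists with GR of both hormones only, the receptor state of the distal region, was found in 11 of the 495 (2.22%) and in 262 of all 27111 regions (0.966%). The distal region is itself among the 50, the 34 and the 11. The part that region width has in these shares was not tested. Among the 150 estradiol H3K27ac peaks at least as strong as the broad distal peak, 2 overlapped no vehicle peak, and with both hormones 2 of 174 did. The broad distal peak is itself among the 2 in each list, and its gain with estradiol was part of what chose the locus. Over the whole lists, 26.9% of estradiol peaks and 23.2% of peaks with both hormones overlapped none. Both dexamethasone peaks of the window overlapped none either, as did 24.8% of that list. Counted from ER, 7 of 3560 estradiol sites had the full pattern of the distal site (ER in both lists, GR with both hormones only, H3K27ac in the 3 hormone lists and not with vehicle), and this was the only one among the 50 strongest. That count rests on the 28 bp shared with the dexamethasone H3K27ac peak. The pattern was read off the distal site, whose values helped choose the locus. The counts and ranks here that include the distal site or region are therefore a description only. The same receptor state was found at 135 sites with H3K27ac in all 4 lists, at 115 with H3K27ac in no list and at 96 with H3K27ac only with estradiol and with both hormones. Of the 50 strongest ER sites, 9, 6 and 14 in the same order were of these kinds.

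At the THBS1 start, H3K27ac was called before the start with vehicle, estradiol and both hormones, after the start with estradiol and both hormones, and on neither side with dexamethasone. With vehicle a peak of 452 bp lay from 626 to 175 bp before the start (chr15:39872654-39873105, fold enrichment 12.2). With estradiol a peak of 1064 bp lay from 1162 to 99 bp before the start (chr15:39872118-39873181, 27.9), and one of 542 bp lay from 81 to 622 bp after it (chr15:39873361-39873902, 9.34). With both hormones the upstream peak had 801 bp (chr15:39872327-39873127, 13.8) and the downstream peak 403 bp (chr15:39873390-39873792, 9.45). The upstream peak stood higher in the estradiol list, where 88.1% of peaks were weaker, than in the vehicle list (53.5%) and in the list with both hormones (67.0%). The downstream peak stood lower, with 36.0% of peaks weaker in the estradiol list and 42.2% in the list with both hormones. With estradiol it was lost when the list was cut to its strongest 15192 peaks. Places in lists of different lengths show no change in level. The THBS1 start itself lay in the gap between the upstream and downstream peaks, 179 bp wide with estradiol and 262 bp with both hormones. The ER peak stood at the near edge of the downstream H3K27ac peak and shared 110 of its 116 bp with it in the estradiol lists.

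Of the 5 joined H3K27ac regions of the window, 2 were gained with estradiol against vehicle (21.8% of all regions were), 1 with dexamethasone (10.8%) and 4 with both hormones (14.9%). Here gained and lost describe calls in lists, not levels. None of the 5 was lost with estradiol (4.6% of all regions) or with both hormones (15.1%). The upstream THBS1 region was lost with dexamethasone, as 35.3% of all regions were, and its pattern of presence in the other 3 lists was that of 5699 regions (21.0%). The dexamethasone H3K27ac list was the shortest of the 4. With both hormones 2 further regions inside FSIP1 were called in no other list, chr15:39953686-39954505 (fold enrichment 8.17) and chr15:39974221-39974511 (8.81), the latter weaker than all but 7.64% of its list. Neither overlapped a receptor site. Regions called with both hormones and in no other list numbered 1170 of 27111 (4.32%).

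The receptor sites differed in their H3K27ac by list. Both estradiol ER sites of the window lay in H3K27ac peaks with estradiol (50.6% of all estradiol ER sites did) and with both hormones (46.5%). With dexamethasone the distal site did and the THBS1 site did not (27.5% of all), and with vehicle neither did (36.8%). Counting H3K27ac within 1 kb, the THBS1 site was marked with vehicle as well. The single GR site lay in H3K27ac with estradiol (42.9% of all GR sites of both hormones did), with dexamethasone (33.7%) and with both hormones (47.7%), and not with vehicle (33.3%). So few sites cannot be read against these shares. Among the 50 strongest estradiol ER sites, which include the distal site, 78% lay in H3K27ac with estradiol and 72% with both hormones. For dexamethasone it was 30%, and for vehicle 34%. Among the 211 estradiol ER sites within 100 ranks of the THBS1 site, the shares were 36.0% with estradiol and 33.6% with both hormones. They were 19.9% with dexamethasone and 28.4% with vehicle.

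The FSIP1 start carried no peak of any list. The nearest peak of any kind was the H3K27ac peak of both hormones 101 kb away inside the gene, and the nearest vehicle H3K27ac peak was 151 kb away, beyond the start. No H3K27ac was thus called at the FSIP1 start in any treatment, although the distal site lies inside that gene. RNA was not analysed here, and which gene, if any, the distal site acts on was not tested. In RefSeq order the protein-coding neighbour beyond FSIP1 is GPR176.

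Widening the window by 100 kb on each side changed the count of none of the 4 receptor lists. It raised the H3K27ac counts from 1 to 2 with vehicle, from 4 to 6 with estradiol and from 6 to 8 with both hormones, and left 2 with dexamethasone. The first peak inside it lay 52.1 kb from the left edge and the last 155 kb from the right edge. Outside it, the nearest ER peaks lay 934 kb to the left (chr15:38885664-38885914 with estradiol) and 497 kb to the right (chr15:40627301-40627507 with both hormones). The nearest H3K27ac peaks outside lay 400 kb to the left, with both hormones, and 83.3 kb to the right, with estradiol.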

How the data were processed

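The submitters' processing notes name Bowtie 1.1.2, build hg19 and MACS2 2.1.0.20140616. Peaks passed p 1e-10 against a control library, keeping at most 1 tag per position and scaling the larger library down, per the file headers. Each peak's pileup is the authors' coverage signal at its summit. Its significance is the authors' −log10 p-value and −log10 q-value, and its fold enrichment is the authors' ratio to the local control. Controls are known only by tag total, 3479280 for ER, 5735043 for GR and 14002417 for H3K27ac, and the control sample's labels name input and IgG, so what the fold enrichment is relative to is uncertain and may differ between antibodies. All of these serve here to rank or describe peaks inside 1 list. Positions are 1-based.

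Peaks overlapping the window were taken from all 8 lists with Python 3.11.15 and pandas 2.3.3. Peaks of different lists were matched when they shared at least 1 bp, and H3K27ac peaks that overlap or abut were joined into regions. No test was run. The matching code was tested on simulated intervals. Gene positions on hg19 are those of the rule that defined the window. The rule for full description took receptor sites called in 2 or more lists, H3K27ac regions at gene starts or at such sites, and the widest region absent with vehicle. No hg19 sequence or gene annotation was used, so related genes (thrombospondins and their receptors), cell type markers and the bases of the distal site were not analysed here. ER with vehicle, GR with vehicle and the control sample were not analysed here. The members and lists were chosen with earlier results of these data known.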

Additional observations from a re-analysis of the deposited data

How the results depend on the processing

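No paired analysis was possible because each group holds 1 library. Of 108 alternative values, over 35 results, 89 stayed within 1.5 times the reported value and 19 moved further. Some of those that stayed could not move. The window held 0 dexamethasone GR peaks, and stricter cutoffs or shorter lists cannot raise a count of 0. The tally is therefore no measure of how firm the results are. Cutting lists to equal length, which keeps fewer peaks, left 1 estradiol ER peak and 1 ER peak of both hormones, 1 shared ER site, 2 estradiol H3K27ac peaks, 1 region gained with estradiol and 1 receptor site inside estradiol H3K27ac. Requiring −log10 p of at least 20 left 1 ER peak of both hormones and 1 shared ER site. Joining regions up to 1 kb apart left 1 region gained with estradiol, because the regions on both sides of the THBS1 start became 1. Counting H3K27ac within 1 kb put 1 receptor site in vehicle H3K27ac. Without the flanks, vehicle H3K27ac had 0 peaks and 0 kb, since its peak lies before the THBS1 start, and a window widened by 100 kb held 2 such peaks. Ranked by fold enrichment, the strongest peak of the window was 18 (ER, both hormones), 15 (GR, both hormones), 6488 (H3K27ac, vehicle) and 298 (H3K27ac, both hormones). Ranked by pileup it was 1 (ER, estradiol) and 74 (GR, both hormones). Depth limits missing calls: a site under the authors' cutoff is not shown to be unbound or unacetylated.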

Other observations

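With the chromosomes divided end to end into windows of the same 310 kb, and counting the 5495 windows that hold a peak of any list, 13.9% held at least 2 estradiol ER peaks and 9.3% held at least 2 ER peaks of both hormones. At least 1 GR peak of both hormones was in 19.8%. At least 6 H3K27ac peaks of both hormones were in 21.9% and at least 4 of estradiol in 41.8%. At least 2 H3K27ac peaks of dexamethasone were in 44.5% and at least 1 of vehicle in 84.5%. For the 7 lists with a peak in the THBS1 and FSIP1 window, taken singly, 9.3% to 84.5% of these windows held at least as many. Windows without any peak were left out, which raises these shares.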
